A study of Mus musculus with 2 samples.

Results

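The elastic fibre is a crosslinked core of elastin laid on a scaffold of fibrillin microfibrils, and the genes described here encode its core, its scaffold, its adaptor proteins and the enzymes that crosslink it. The set held 10 of the 32287 features of each count table: Eln, Fbn1, Mfap4, Mfap5, Fbln1, Fbln5, Lox, Loxl1, Loxl2 and Loxl3. They were chosen by symbol and with no cut on a measured value, but with earlier results of these data known. Each symbol occurred once in the tables, and all 10 had UMIs (unique molecular identifiers, the counted transcript molecules) in both libraries. Soluble elastin binds microfibrils with the help of fibulins and is then crosslinked through its lysines by lysyl oxidases, copper-dependent enzymes that also crosslink collagen. After a myocardial infarction, fibroblasts of the infarct zone build a scar from collagen and other matrix, and the crosslinking is known to give that scar its tensile strength. Endothelial, mesothelial and mural cells of the heart can make parts of the same matrix.

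The cells came from mice of the genotype p16-2A-CreER;R26-mTmG, in which a tamoxifen-activated Cre is expressed from the p16 locus and turns a cell and its progeny from membrane tomato to membrane GFP. All mice had a myocardial infarction and received tamoxifen by gavage on day 5 after it, and on day 7 the cells of the infarct zone other than cardiomyocytes were sorted into a GFPhi and a GFPlo fraction, which other labels call GFP-positive and GFP-negative. Both fractions therefore share the genotype, the injury and the drug, and neither is an uninjured or untreated control. Each fraction gave 1 droplet library, and the sources used here do not state how many mice, of which sex or age, were behind it.

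With 1 library per fraction no difference has a replicate check and no test was made. Levels are in CPM, a gene's UMIs over all cells of a class per 1000000 UMIs of that class, ratios are of those levels, and the 95% intervals in brackets cover counting error only. A level is called higher or lower when it was past 1.5-fold with at least 10 CPM on either side. The tables held 10430 barcodes with 91343549 UMIs in GFPhi and 12344 with 104855204 in GFPlo, and 10125 and 11959 cells passed the filter on genes, UMIs and mitochondrial share, with medians of 6899 and 7712 UMIs. Of the kept barcodes, 92 occurred in both libraries, and leaving them out changed none of the counts of members past 1.5-fold. Cells were assigned to classes by their UMIs of marker genes, none of which is in the set. Macrophages made up 7976 cells of GFPhi and 75 of GFPlo, fibroblasts 383 and 7720, mesothelial cells 437 and 1174, endothelial cells 189 and 748, lymphatic endothelial cells 88 and 261, and mural cells, the pericytes and smooth muscle of vessel walls, 13 and 134.

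Among the members with a promoter in the RefSeq table of build GRCm38.p6, the fibulins Fbln1 and Fbln5 are shown, because their levels ran in opposite directions across the fibroblast subsets described further on. Each window is the 250 bases before an annotated start, in the direction of transcription, at chr15:85205699-85205948 on the plus strand for Fbln1 and at chr12:101819120-101819369 on the minus strand for Fbln5. Neither window overlaps an annotated exon, and each gene has 2 starts in the table. Capitals mark matches of the letters ACGTG on either strand.
Fbln1 promoter: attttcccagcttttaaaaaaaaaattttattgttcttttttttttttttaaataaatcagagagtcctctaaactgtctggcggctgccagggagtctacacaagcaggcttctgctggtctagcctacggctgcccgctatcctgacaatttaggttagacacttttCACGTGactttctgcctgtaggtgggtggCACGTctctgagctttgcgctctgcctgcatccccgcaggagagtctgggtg
Fbln5 promoter: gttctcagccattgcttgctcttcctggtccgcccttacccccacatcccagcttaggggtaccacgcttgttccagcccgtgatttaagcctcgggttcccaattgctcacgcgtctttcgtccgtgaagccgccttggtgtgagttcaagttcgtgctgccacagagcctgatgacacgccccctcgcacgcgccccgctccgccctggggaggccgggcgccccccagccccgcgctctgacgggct
The Fbln1 window held ACGTG from 81 and 80 bases before the start, on opposite strands and overlapping in the palindrome CACGTG, and from 52 bases before it. The letters TGANTCA, like the letters GGAATG and the letters TATAAA, were not in it, and the Fbln5 window held none of the 4 motifs. On both strands, ACGTG occurred in 16.6% of 32851 windows of this length, TGANTCA in 6.75%, GGAATG in 12.6% and TATAAA in 12.4%. The Fbln1 window had a GC content of 46.4% and the Fbln5 window one of 65.2%. These matches describe the letters only, and no binding was measured.

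Summed over whole libraries, all 10 genes were lower in GFPhi than in GFPlo. Eln, which encodes tropoelastin (chr5:134702593-134747323 of mm10, minus strand), was at 247 CPM (244–250.5) in GFPhi and 2368 CPM (2359–2377) in GFPlo, a ratio of 0.104 (0.103–0.106). Mfap4, a glycoprotein of the microfibril (chr11:61485431-61488900, plus strand), was at 128 and 1197 CPM, a ratio of 0.107. The smallest difference was that of Loxl2, a lysyl oxidase that also acts on basement membrane collagen (chr14:69609068-69695834, plus strand), at 49.7 CPM in GFPhi and 218 CPM in GFPlo, a ratio of 0.228 (0.221–0.235). Of all genes measured, 46.8% were past 1.5-fold in either direction and 31.2% were lower in GFPhi, and the median ratio was 0.160 over the 10 genes and 0.832 over all genes. Fibroblasts were 3.78% of the cells in GFPhi and 64.6% in GFPlo, and in such sums fewer cells of a type and less RNA per cell cannot be told apart. The other genes of the system were mostly lower as well, with 11 lower and 1 higher of 13 measured assembly and microfibril genes, 5 lower and 1 higher of 7 crosslinking genes, and 3 lower and 2 higher of 5 elastin-degrading enzymes.

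The cells that carried each transcript differed between the genes and between the libraries. Fibroblasts held 65.0% of the Eln UMIs of GFPhi and 91.2% of those of GFPlo, and 86.2% and 96.1% of the Mfap4 UMIs. Fbln1, a fibulin of basement membranes and elastic fibres (chr15:85205949-85286535, plus strand), stood apart in GFPhi: mesothelial cells held 60% of its UMIs there, against 17.3% in GFPlo, while fibroblasts held 30.7% in GFPhi and 80.1% in GFPlo. Mesothelial cells likewise held 44.9% of the Loxl1 UMIs and 41.8% of the Loxl2 UMIs of GFPhi, against 12.5% and 13.9% in GFPlo. They held 2.34% and 1.5% of the Mfap4 UMIs. Such shares follow the number and depth of the cells as well as the level of a gene. In GFPhi the 437 mesothelial cells had a median of 28739 UMIs and the 383 fibroblasts one of 16694. In GFPlo the 1174 mesothelial cells had a median of 14668.5 UMIs and the 7720 fibroblasts one of 8325.5. In the 7976 macrophages of GFPhi, 9 of the 10 genes were between 1.16 and 5.71 CPM and Eln was at 7.73 CPM, and these levels serve as a background for the rarer classes. In the 75 macrophages of GFPlo the same genes ranged up to 83.2 CPM, that of Eln, and Loxl3 had no UMI, which allows up to 7.34 CPM. Free RNA or a second cell in the droplet was not told apart from transcription in these values.

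**Figure D1:**
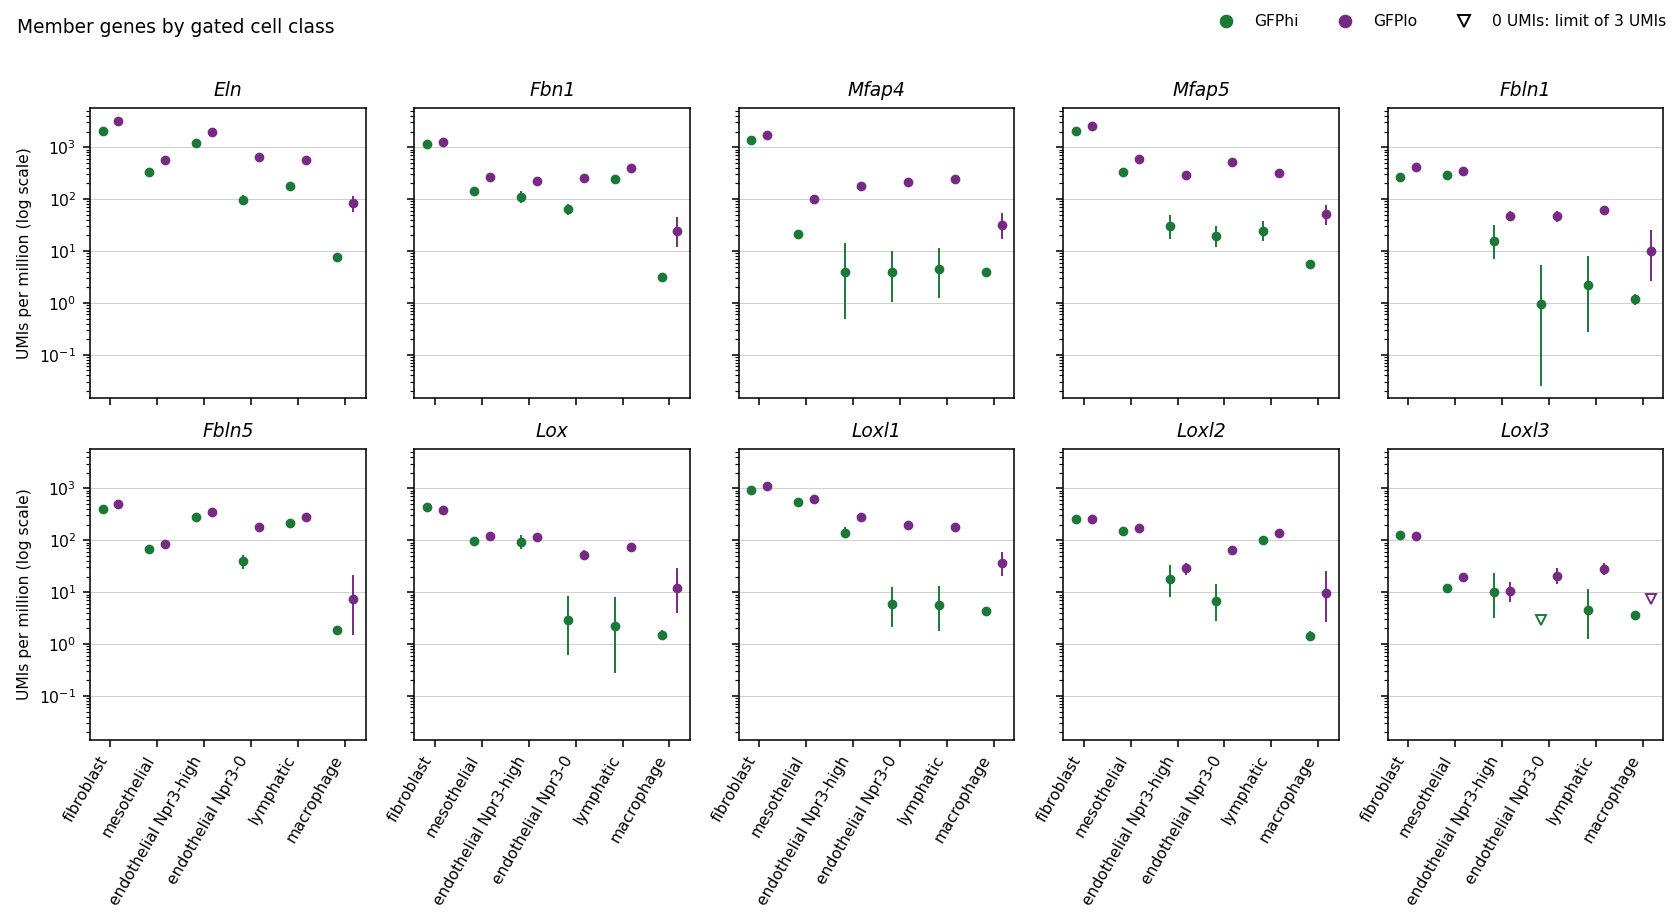
Level of each gene, in UMIs per 1000000 UMIs (CPM) on a log axis, in 6 cell classes of GFPhi (green) and GFPlo (purple), each point 1 class of 1 library with its 95% counting interval and a triangle marking the limit of 3 UMIs where none was counted. Eln, Mfap4 and Fbln5 are highest in fibroblasts in both libraries, Fbln1 is at similar levels in fibroblasts and mesothelial cells, and macrophages of GFPhi lie below 10 CPM for every gene.

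Within fibroblasts the fractions were far closer than the whole libraries. Of the 10 genes, 2 were lower in GFPhi fibroblasts and none was higher, against 3.95% of all genes past 1.5-fold in either direction and 2.37% lower. Eln was at 2027 CPM (1994–2059.7) in GFPhi and 3152 CPM (3139–3165) in GFPlo fibroblasts, a ratio of 0.643 (0.632–0.654). Fbln1 was at 263 CPM (252–276) in GFPhi and 424 CPM (419–429) in GFPlo, a ratio of 0.621 (0.593–0.651). Both stood just past the line, and both calls were lost when each cell was given the same weight: the ratios of the mean over cells were then 0.80 for Eln and 0.69 for Fbln1. The GFPhi fibroblasts were also the deeper ones, with a median of 16694 UMIs against 8325.5, and their 8 macrophage markers summed to a median of 2.53 per 10000 UMIs against 0 in GFPlo. The part of either in the result was not tested.

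The microfibril genes differed less between the fibroblasts. Fbn1 (chr2:125300594-125507993, minus strand) encodes fibrillin-1, the backbone of the microfibril, and was at 1159 CPM in GFPhi and 1252 CPM in GFPlo, a ratio of 0.926 (0.905–0.947). Mfap4 was at 1390.0 and 1678 CPM, a ratio of 0.829. Mfap5 (chr6:122505845-122529290, plus strand), a small microfibril protein that binds fibrillin, was at 2069.7 and 2574 CPM, a ratio of 0.804. Fbln5 (chr12:101746565-101819055, minus strand), the fibulin that brings elastin and lysyl oxidase-like enzymes to the microfibril, was at 408 and 509 CPM, a ratio of 0.801. All 4 lay below 1 and short of 1.5-fold.

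The crosslinking enzymes were level or close to it. Lox, the founding lysyl oxidase, was at 429.7 CPM in GFPhi fibroblasts and 389 CPM in GFPlo fibroblasts, a ratio of 1.1 (1.06–1.15). Loxl1 (chr9:58287738-58313186, minus strand), which acts on elastin, was at 908 and 1089.8 CPM, a ratio of 0.833. Loxl2 was at 260.1 and 258 CPM, a ratio of 1.01 (0.961–1.06), and Loxl3 (chr6:83034173-83052562, plus strand), a further lysyl oxidase-like enzyme, was at 128 and 121 CPM, a ratio of 1.06 (0.989–1.13). The intervals of Loxl2 and Loxl3 took in 1. The median over the 10 genes was 0.831 and that over all genes 0.942. Of the other genes of the system, none of 13 measured assembly genes, 1 of 7 crosslinking genes and 1 of 4 degrading enzymes were past 1.5-fold. Pcolce2, an enhancer of procollagen cleavage, was at 152 CPM in GFPhi and 236 CPM in GFPlo fibroblasts, a ratio of 0.644, and Ctss, a cysteine protease rich in macrophages, was at 73.2 and 3.59 CPM, a ratio of 20.4.

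The same 2 genes, Eln and Fbln1, were the ones past the line in each fibroblast subset large enough to compare. These groups are parts of the fibroblasts above, so they are not separate readings. Giving each cell the same weight, which removed both calls in all fibroblasts, was not tried within them. The 10% of cells richest in Eln held 45.9% of its UMIs in Cthrc1 fibroblasts of GFPhi, which was 8 cells, and 43.5% in GFPlo. In fibroblasts with the Cthrc1 panel, 76 in GFPhi and 1424 in GFPlo, Eln was at 1905 and 2889.9 CPM, a ratio of 0.659, and Fbln1 at 189 and 338 CPM, a ratio of 0.559 (0.497–0.626), where 11.2% of all genes were past the line. In those with both the Comp and the Cthrc1 panel, 50 and 856 cells, the ratios were 0.665 and 0.623, with 14.4% of all genes past it. In the 188 and 3484 fibroblasts of no subset they were 0.613 and 0.633, with 7.03% of all genes past it. Lox had a ratio of 1.37 (1.29–1.46) in this last group and of 0.888 (0.825–0.955) in the Cthrc1 group. Its direction therefore differed between the groups, and the difference was not tested.

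Mesothelial cells, which line the surface of the heart and were gated on Msln, Upk3b, keratins and like markers, showed more differences between the fractions. Of the 10 genes, 5 were lower in GFPhi and none was higher, against 8.08% of all genes past the line in either direction and 5.12% lower, with a median ratio of 0.700 against 0.936 over all genes. Mfap4 was at 21.3 CPM in GFPhi and 100.4 CPM in GFPlo mesothelial cells, a ratio of 0.212 (0.186–0.240). Eln was at 332 and 571 CPM, a ratio of 0.581, Fbn1 at 145 and 267 CPM, a ratio of 0.542, and Mfap5 at 339 and 595 CPM, a ratio of 0.569. Loxl3 was at 11.8 and 19.8 CPM, a ratio of 0.596 (0.490–0.722). The top 10% of mesothelial cells held 89.3% of the Mfap4 UMIs in GFPhi and 74.4% in GFPlo, and 83.3% and 60.3% of the cells had none. Of the 8 fibroblast markers, all with UMIs in both libraries, Lum was at 17.3 and 101 CPM, Dpt at 7.03 and 48.1 CPM and Pdgfra at 24.2 and 46.3 CPM, while Dcn, at 4708 and 5732 CPM, and Col1a1, at 2919.5 and 3867 CPM, were closer. The whole panel had a median of 132 per 10000 UMIs in GFPhi and 169 in GFPlo mesothelial cells, and its part in the differences was not tested.

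The other 5 genes were short of the line in mesothelial cells. Fbln1 was at 289.8 and 351 CPM, a ratio of 0.827 (0.794–0.861), Loxl1 at 539 and 625 CPM, a ratio of 0.863, and Loxl2 at 147 and 169 CPM, a ratio of 0.871. Fbln5 was at 68.1 and 84.8 CPM, a ratio of 0.804, and Lox at 95.4 and 118 CPM, a ratio of 0.805. Of the other genes, Efemp1, which encodes fibulin-3, was higher in GFPhi, at 554 CPM against 284 CPM in GFPlo, a ratio of 1.95 (1.88–2.02), and so was Ctss, at 52.0 and 5.73 CPM. Mfap2, a microfibril protein, was lower at 139.8 and 261 CPM, a ratio of 0.536. Emilin1, Emilin2, Ltbp2, Adamtsl2, Pcolce2 and Ctsk were lower as well, with ratios from 0.114 to 0.652.

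**Figure D2:**
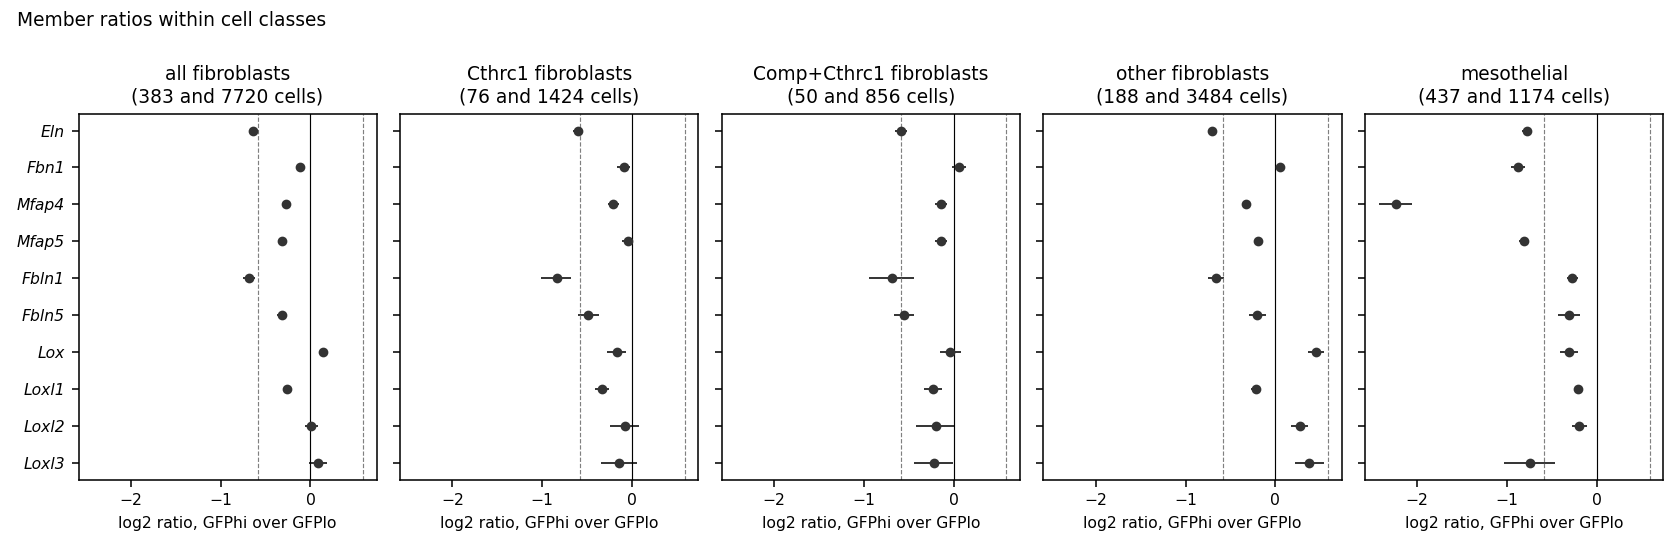
Log2 ratio of GFPhi over GFPlo for each gene within fibroblasts, 3 groups of fibroblasts and mesothelial cells, with 95% counting intervals, a solid line at equal levels and dashed lines at 1.5-fold in either direction. Eln and Fbln1 lie beyond the left dashed line in every fibroblast panel, and Mfap4 lies farthest left in mesothelial cells, at a ratio of 0.212.

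Set against mesothelial cells of the same library, fibroblasts were higher for 9 of the 10 genes in each library, where 19.2% of all genes were higher in GFPhi and 16.5% in GFPlo. Mfap4 differed most, at 1390.0 CPM in fibroblasts and 21.3 CPM in mesothelial cells of GFPhi, a ratio of 65.4 (58.0–74.0), and with a ratio of 16.7 in GFPlo. Loxl3 had ratios of 10.8 in GFPhi and 6.09 in GFPlo, Fbn1 of 8.0 and 4.69, Eln of 6.10 and 5.52, Mfap5 of 6.10 and 4.32, and Fbln5 of 5.99 and 6.0. Lox had ratios of 4.50 and 3.28. Loxl1, at 1.68 and 1.74, and Loxl2, at 1.76 and 1.53, were only just past the line. The exception was Fbln1, with a ratio of 0.909 (0.860–0.961) in GFPhi and 1.21 (1.18–1.24) in GFPlo. Efemp1 was lower in fibroblasts, at 13.6 CPM in fibroblasts and 554 CPM in mesothelial cells of GFPhi, and at 12.2 and 284 CPM in GFPlo. Tll1, a protease that cleaves procollagens and can activate lysyl oxidase, was also lower in fibroblasts, at 0.693 and 43.5 CPM in GFPhi and 1.24 and 34.0 CPM in GFPlo.

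Fibroblasts were then divided by 3 marker panels. The Pi16 panel (Pi16, Scara5, Dpp4, Sema3c, Efhd1) marks adventitial, progenitor-like fibroblasts, the Comp panel (Comp, Thbs4, Fmod, Cilp, Cilp2) tendon-like scar fibroblasts, and the Cthrc1 panel (Cthrc1, Acta2, Ptn, Sfrp1, Ddah1) activated myofibroblasts. Cells passing 1 panel numbered 27 in GFPhi and 1057 in GFPlo for Pi16, 33 and 674 for Comp, and 76 and 1424 for Cthrc1. The libraries give separate readings of the same comparison, of which that in GFPhi rests on few cells.

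Pi16 fibroblasts carried a different selection of elastic fibre genes from the Comp and Cthrc1 fibroblasts. Set against the sum of those subsets, 4 of the 10 were higher in each library and 3 lower, where 43.1% of all genes were past the line in GFPhi and 19.4% in GFPlo. Of all genes, 25.5% were higher and 17.6% lower in GFPhi, and 12.2% and 7.2% in GFPlo. Mfap5 was at 7038 CPM in Pi16 fibroblasts and 1685 CPM in the other subsets of GFPhi, a ratio of 4.18 (3.97–4.39), and at 6234 and 1831 CPM in GFPlo, a ratio of 3.40 (3.36–3.45). Fbn1 was at 2266 and 1130.3 CPM in GFPhi, a ratio of 2.00, and at 2156 and 1179.9 CPM in GFPlo, a ratio of 1.83. Fbln1 had ratios of 2.60 (2.17–3.09) and 1.78 (1.72–1.85), and Loxl2 of 1.93 and 1.5. These are 2 microfibril genes, a fibulin and a crosslinking enzyme.

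Lower in Pi16 fibroblasts were Fbln5, Lox and Loxl3. Fbln5 was at 221 CPM in Pi16 fibroblasts and 466 CPM in the others of GFPhi, a ratio of 0.474 (0.373–0.596), and at 258 and 599 CPM in GFPlo, a ratio of 0.430. Lox was at 285 and 499 CPM in GFPhi, a ratio of 0.570, and at 191 and 526 CPM in GFPlo, a ratio of 0.364. Loxl3 was at 49.7 and 155 CPM in GFPhi, a ratio of 0.320 (0.187–0.514), and at 45.8 and 160.0 CPM in GFPlo, a ratio of 0.286. Mfap4, at 0.990 and 1.02, and Loxl1, at 1.25 and 1.15, were short of the line, and Eln stood at 1.43 in GFPhi and 0.888 in GFPlo. Of the 27 Pi16 fibroblasts of GFPhi, the 3 richest in each gene held 52.4% of the Lox UMIs and 77.5% of the Eln UMIs. The richest 10% in GFPlo, 106 cells, held 43.3% and 56.9%. The median ratio over the 10 genes was 1.34 in GFPhi and 1.08 in GFPlo, and that over all genes 1.06 and 1.08.

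The other genes of the system showed the same mixture in Pi16 fibroblasts of GFPlo. Fbln2, a fibulin with microfibril binding, was at 1480.4 CPM against 623 CPM in the other subsets, a ratio of 2.38, Ltbp4, a microfibril protein that helps assemble elastin, at 1050.0 and 492 CPM, a ratio of 2.13, and Emilin2 at 68.0 and 4.30 CPM, a ratio of 15.8. Efemp1, Ltbp1, Pcolce2 and Mmp2 were higher too. Lower were Fbn2, which encodes fibrillin-2, at 17.7 and 50.7 CPM, Ltbp2 at 102 and 291 CPM, Plod2, a lysyl hydroxylase, at 122 and 291 CPM, Emilin1 at 127 and 205 CPM and the membrane-bound collagenase Mmp14 at 208 and 394 CPM. In GFPhi the same direction was past the line for Fbln2, Efemp1, Emilin1, Emilin2, Ltbp1, Ltbp2, Ltbp4, Pcolce2, Mmp2 and Mmp14, while Mfap2, at 1.56, and Bmp1, at 1.84, were past it in that library alone.

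Comp fibroblasts were higher in Fbln5 and Loxl3 than the other subsets. Fbln5 was at 683 CPM in Comp fibroblasts and 366 CPM in the other subsets of GFPhi, a ratio of 1.87 (1.64–2.12), and at 723 and 456 CPM in GFPlo, a ratio of 1.59. Loxl3 was at 211 and 122 CPM in GFPhi, a ratio of 1.73, and at 182 and 117 CPM in GFPlo, a ratio of 1.56. These 2 of 10 were higher in each library and none was lower, where 33.2% of all genes were past the line in GFPhi and 8.24% in GFPlo, and 18.6% and 4.66% were higher. The share of members in GFPhi was thus close to that of all genes, and both GFPlo calls were lost with a stricter gate, which left 0 members higher. Cells passing both the Comp and the Cthrc1 panel were higher in the same 2 genes than cells with the Cthrc1 panel alone, Fbln5 at 773 and 397 CPM in GFPhi (1.95) and 1131 and 557 CPM in GFPlo (2.03), Loxl3 with ratios of 1.53 and 1.61, where 27.8% and 10.1% of all genes were past the line and 14% and 4.57% higher. Mfap5 was past it in GFPlo alone, at 1.59, and was just short of it in GFPhi, at 1.5.

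Cthrc1 fibroblasts were lower in 3 of the 4 genes that were higher in Pi16 fibroblasts. Mfap5 was at 1414 CPM in Cthrc1 fibroblasts and 4372 CPM in the other subsets of GFPhi, a ratio of 0.323, and at 1465 and 4897 CPM in GFPlo, a ratio of 0.299 (0.295–0.304). Fbn1 had ratios of 0.586 and 0.596, and Fbln1 of 0.560 and 0.663. Loxl2, at 0.716 and 0.671, was short of the line. Lox was at 478 and 451 CPM in GFPhi, a ratio of 1.06, and at 539 and 311 CPM in GFPlo, a ratio of 1.73 (1.67–1.80), and Loxl3 had ratios of 0.947 and 1.52. Of the 10 genes, 3 were thus lower in each library and 2 higher in GFPlo alone, where 34.4% of all genes were past the line in GFPhi and 17% in GFPlo, and 22.8% and 12.1% were lower. The 3 subset comparisons share cells, since each subset is part of what the others were set against.

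**Figure D3:**
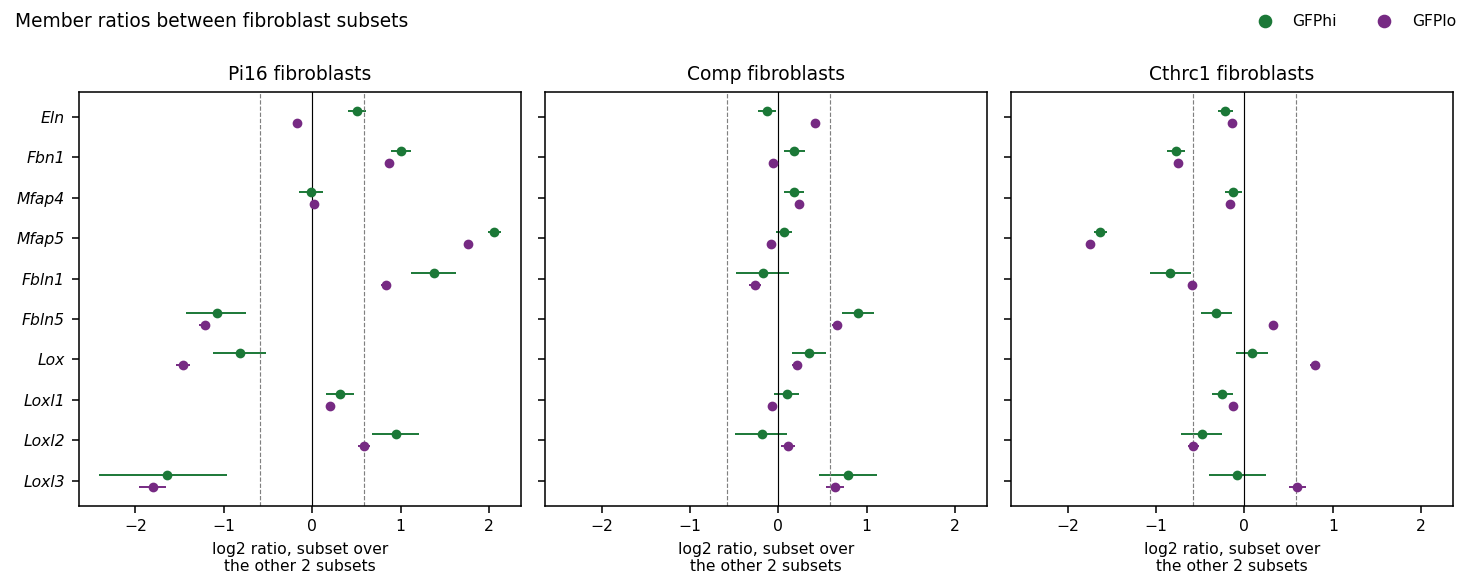
Log2 ratio of each gene in 1 fibroblast subset over the other 2 subsets of the same library, in GFPhi (green) and GFPlo (purple), with 95% counting intervals and dashed lines at 1.5-fold. In Pi16 fibroblasts of both libraries, Mfap5, Fbn1, Fbln1 and Loxl2 lie to the right and Fbln5, Lox and Loxl3 to the left.

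All fibroblasts, in a subset or not, were then binned by panel UMIs per 10000. In GFPlo, Mfap5 was at 1334 CPM in the 3192 fibroblasts with under 2 Pi16 panel UMIs per 10000 and at 9276 CPM in the 327 with 40 or more, and Fbn1 was at 963 and 3062 CPM in the same bins. Loxl3 ran the other way, at 136 and 37.7 CPM, and Fbln5 was highest in the second bin, at 687 CPM, and lowest in the last, at 237 CPM. In GFPhi, where 21 fibroblasts filled the last bin given, at 10 to 20 per 10000, Mfap5 was at 1133 CPM in the lowest bin and 4596 CPM in that one. Fbn1 was at 966 and 1332 CPM and Loxl3 at 132 and 57.2 CPM in the same bins. Lox, at 409 and 545 CPM, and Fbln5, at 335 and 505 CPM, were higher there, although lower in the Pi16 subset of GFPhi. In GFPlo, Lox was at 402 CPM in the lowest bin and 230 CPM at 40 or more.

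Along the Comp panel in GFPlo, Fbln5 was at 258 CPM in the lowest bin and 974 CPM in the highest, Loxl3 at 76.3 and 307 CPM, and Lox at 229.9 and 739 CPM. In GFPhi, Loxl3 was at 63.0 and 291 CPM and Lox at 219 and 800.1 CPM in those bins. Eln followed a different course, highest in the middle: in GFPlo it was at 2489 CPM in the lowest bin, 4341 CPM at 10 to 20 per 10000 and 1171 CPM at 40 or more. In GFPhi it was at 1649 CPM in the lowest bin, 3264 CPM at 20 to 40 per 10000 and 498 CPM at 40 or more, where 20 fibroblasts lay. Fbln1 fell off in the same last bin, to 127 CPM in GFPlo and 22.0 CPM in GFPhi.

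Along the Cthrc1 panel in GFPlo, Lox was at 131 CPM in the 2380 fibroblasts under 10 per 10000 and at 708 CPM in the 556 with 100 or more, while Mfap5 was at 3339 and 1672 CPM and Fbn1 at 1245 and 1213 CPM. In GFPhi, Lox was at 216 CPM in the lowest bin and 605 CPM in the highest, and Fbn1 at 1023 and 1466 CPM. Fbn1, lower in Cthrc1 fibroblasts than in the other subsets, was thus higher in the highest than in the lowest bin of this panel in GFPhi, and close between them in GFPlo. Fbln5 was at 194 and 776 CPM in GFPhi and at 248 and 789.8 CPM in GFPlo in those bins. Eln was spread unevenly over cells: the 10% of fibroblasts with the most Eln held 52.8% of its UMIs in GFPhi and 50.1% in GFPlo, against 15.3% and 17.3% for Loxl1 in the 10% richest in it.

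**Figure D4:**
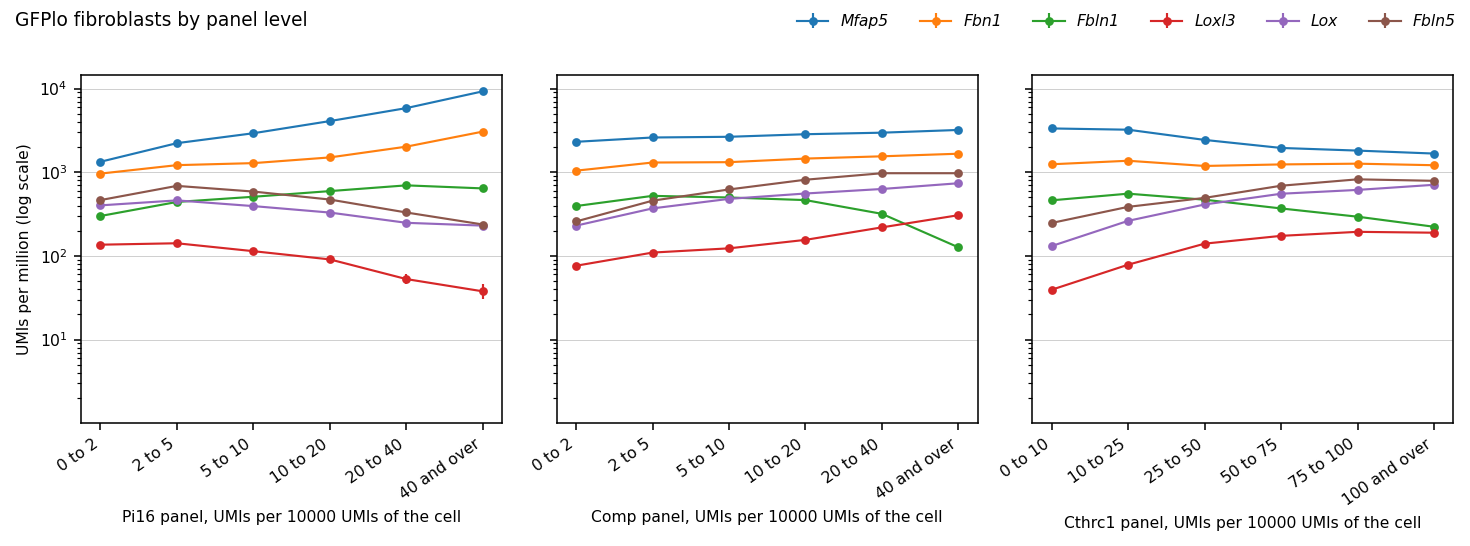
Level of 6 genes, in UMIs per 1000000 UMIs (CPM) on a log axis, in GFPlo fibroblasts binned by the UMIs of the Pi16, Comp or Cthrc1 panel per 10000 UMIs of the cell, with 95% counting intervals that are mostly smaller than the points. Mfap5 climbs along the Pi16 panel, to 9276 CPM, while Loxl3 declines, and Lox, Loxl3 and Fbln5 are higher at the top than at the bottom of the Comp and Cthrc1 panels.

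Cycling fibroblasts, with UMIs of at least 3 of 6 proliferation genes such as Mki67 and Top2a, carried less of Eln, Mfap4 and the fibulins than the other fibroblasts. They numbered 28 of the 383 fibroblasts in GFPhi and 346 of 7720 in GFPlo. Eln was at 482 CPM in cycling and 2267 CPM in the other fibroblasts of GFPhi, a ratio of 0.213 (0.194–0.233), and at 867 and 3373 CPM in GFPlo, a ratio of 0.257 (0.250–0.264). Fbln1 had ratios of 0.357 and 0.309, Mfap4 of 0.418 and 0.341, Fbln5 of 0.426 and 0.478, and Mfap5 of 0.625 and 0.702. Loxl2, at 1.17 (1.03–1.33) and 1.34 (1.28–1.40), and Loxl3, at 1.24 and 1.21, were above 1 and short of the line. Fbn1, at 0.797 and 0.764, Lox, at 0.791 and 0.727, and Loxl1, at 0.711 and 0.685, were below 1 and short of it. Of the 10 genes, 5 were lower in GFPhi and 4 in GFPlo and none was higher. Of all genes, 30.5% and 27.3% were past the line in either direction, and 15.7% and 12.2% were lower.

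Endothelial cells were divided by Npr3, a natriuretic peptide receptor known as a marker of the endocardium, the inner lining of the heart chambers. Cells with 2 or more Npr3 UMIs numbered 81 in GFPhi and 414 in GFPlo, and cells with none numbered 98 and 270. Cytl1, another gene of the endocardial list, was at 201 CPM in the Npr3-high cells of GFPhi and 270 CPM in those of GFPlo. In cells without Npr3 it was at 31.2 and 96.97 CPM. Nfatc1, the remaining gene of that list, went the other way. In GFPhi it was at 27.9 CPM in Npr3-high cells and 35.1 CPM in cells without Npr3, short of the line. In GFPlo it was lower in Npr3-high cells than in cells without Npr3, which were at 64.2 CPM. Lymphatic endothelial cells had 121 CPM of Nfatc1 in GFPhi and 125 CPM in GFPlo. Many endothelial cells also passed the fibroblast gate: 20 of the Npr3-high cells of GFPhi and 199 of those of GFPlo, and 1 and 45 of the cells without Npr3. Values are therefore given with them and, by an alternative added after the data were seen, without them.

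Npr3-high cells carried more Eln, Fbln5 and Lox than the endothelial cells without Npr3, by a wider margin in GFPhi than in GFPlo. In GFPhi, Eln was at 1229.8 CPM in Npr3-high cells and 97.4 CPM in cells without Npr3, a ratio of 12.6 (10.2–15.8), and in GFPlo at 1924 and 634 CPM, a ratio of 3.04 (2.83–3.26). Fbln5 was at 279 and 39.0 CPM in GFPhi, a ratio of 7.15 (5.00–10.4), and at 351 and 177 CPM in GFPlo, a ratio of 1.98. Lox was at 93.5 and 2.92 CPM in GFPhi, a ratio of 32.0 (10.3–161) that rests on 3 UMIs in the cells without Npr3, and at 118 and 52.8 CPM in GFPlo, a ratio of 2.23. Without the cells that also passed the fibroblast gate, the Eln ratios were 10.4 in GFPhi and 3.15 in GFPlo, those of Fbln5 6.67 and 1.82, and those of Lox 28.7 and 3.27. With each cell given the same weight, the Eln ratios were 4.55 and 2.76.

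The remaining genes were less alike in the libraries. Loxl1 was at 139 and 5.84 CPM in GFPhi, a ratio of 23.8 (10.4–67.2), but at 283 and 199 CPM in GFPlo, a ratio of 1.42 that became 3.85 without the cells in the fibroblast gate. Mfap4 had ratios of 1.02 and 0.870. Mfap5, at 1.53 (0.730–3.15) and 0.581, and Loxl2, at 2.63 (0.870–8.30) and 0.444, lay on different sides of 1, with intervals in GFPhi that took in 1. The Mfap5 ratio of GFPhi turned round to 0.174 without the cells in the fibroblast gate and to 0.533 with each cell given the same weight, and the Loxl2 ratio of GFPlo became 1.21 without those cells. Fbln1 had a single UMI in the GFPhi cells without Npr3, so its ratio of 16.3 (2.19–725) is barely bounded. In GFPhi 8 of the 10 genes were higher in Npr3-high cells, where 23.5% of all genes were, and in GFPlo 3 were higher and 3 lower, where 15.4% and 21.5% of all genes were.

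The share of cells with an Eln UMI gave the same order. With each cell thinned to 1000 UMIs, it was 43.2% (32.2–54.7) of Npr3-high cells in GFPhi and 59.4% (54.4–64.2) in GFPlo, against 18.3% (11–27.6) and 28.0% (22.6–33.8) of cells without Npr3. It was 51.6% of fibroblasts in GFPhi and 60.7% in GFPlo. In macrophages, where it is read as background, it was 0.949% in GFPhi and 10.8% in GFPlo. Without thinning the shares were 72.8% and 87.0% of Npr3-high cells, 35.7% and 58.9% of cells without Npr3 and 5.63% and 38.7% of macrophages, at median depths of 6041 and 4668, 6340 and 3933.5, and 6932.5 and 5185 UMIs.

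Several fibroblast genes were nearly absent from the Npr3-high cells of GFPhi, while others were present. Dpt and Tcf21 had no UMI there and Pdgfra was at 1.99 CPM, against 53.7, 45.6 and 21.9 CPM in those of GFPlo, and Col1a1 was at 165 and 1114 CPM. Dcn, at 2426 and 2726 CPM, and Lum, at 663 and 770 CPM, were close between the libraries. Mfap4, at 3.98 and 182 CPM, and Mfap5, at 29.8 and 297 CPM, were lower in GFPhi. Eln, with a ratio of 0.639 (0.586–0.696), Fbln5, at 0.793, and Lox, at 0.793 (0.568–1.09), differed less. In Npr3-high cells 7 of the 10 genes were lower in GFPhi, where 24.3% of all genes were past the line and 15.7% lower. Without the cells in the fibroblast gate, 4 were lower, namely Mfap4, at 5.43 and 36.4 CPM, Mfap5, at 2.72 and 86.4 CPM, Fbln1, at 10.9 and 23.9 CPM, and Loxl2, at 13.6 and 21.9 CPM, which rest on 1 to 5 UMIs each in GFPhi. Eln, at 923 and 1145 CPM (0.807), Fbn1, at 0.790, and Loxl1, at 0.699, were no longer past the line. In cells without Npr3 all 10 were, where 26.3% were past it and 16% lower, and 9 were without the cells in that gate. Of these, Loxl1, Mfap4 and Fbln1 were then at 41.4, 28.8 and 12.6 CPM in GFPlo. The 72 macrophages of GFPlo lowest in fibroblast markers were close, at 34.8, 32.3 and 9.95 CPM. The other lower genes were above those macrophages, from Loxl2, at 18.0 against 9.95 CPM, to Eln, at 364 against 82.1 CPM. In GFPhi, Lox, Loxl1, Loxl2, Fbln1 and Mfap4 rested on 1 to 7 UMIs each. The part of background was not tested.

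Of the assembly and microfibril genes, 10 of 10 measured were higher in the Npr3-high cells of GFPhi, where 23.5% of all genes were. In GFPlo, 7 of 11 were higher and 1 lower, where 15.4% and 21.5% of all genes were. These values include the cells that also passed the fibroblast gate and were not recomputed without them. Mfap2 was at 434 and 26.3 CPM in GFPhi, a ratio of 16.5 (11–25.6), and at 541 and 124 CPM in GFPlo, a ratio of 4.35. Ltbp3, which holds latent TGF-beta in the matrix, had ratios of 21.9 and 3.02, Ltbp1 of 4.05 and 2.41, Plod2 of 8.65 and 2.77, Emilin1 of 2.71 and 2.35, Adamts10 of 4.36 and 2.01, Efemp1 of 6.13 and 6.93 and Efemp2 of 3.79 and 1.55. The proteases Mmp2, at 11.8 and 2.01, and Ctsk, at 9.59 and 2.72, were higher too. Lower in both libraries were Plod1, at 0.255 and 0.312, Mmp14, at 0.425 and 0.550, and Bmp1, at 0.584 (0.258–1.20) and 0.640, the first of these Bmp1 intervals taking in 1.

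**Figure D5:**
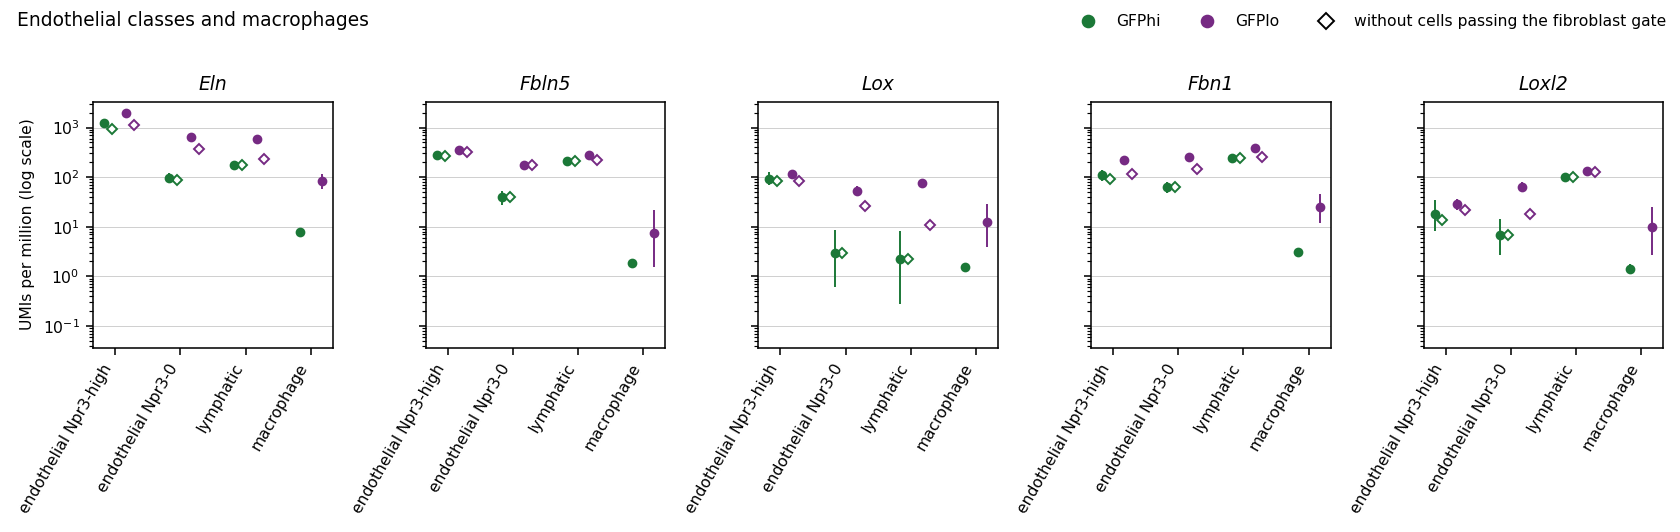
Level of 5 genes, in UMIs per 1000000 UMIs (CPM) on a log axis, in endothelial cells with 2 or more Npr3 UMIs (Npr3-high), with none (Npr3-0), in lymphatic endothelial cells and in macrophages of GFPhi (green) and GFPlo (purple), as filled points with 95% counting intervals and, without the cells that also passed the fibroblast gate, as open diamonds. Eln, Fbln5 and Lox are higher in Npr3-high than in Npr3-0 cells in each library, and in GFPhi Fbn1 and Loxl2 are highest in the lymphatic cells.

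Lymphatic endothelial cells were gated on Prox1, Mmrn1, Flt4, Ccl21a and Reln. Outside the fibroblast gate, Fbn1, Fbln5, Eln and Loxl2 were the highest of the 10 genes in them. In GFPhi, where none of the 88 cells passed the fibroblast gate, Fbn1 was at 244 CPM, Fbln5 at 212 CPM, Eln at 177 CPM and Loxl2 at 99.9 CPM, while the other 6 genes were between 2.25 and 24.7 CPM. In GFPlo, without the 30 of 261 cells that passed that gate, the same genes were at 252, 224, 227 and 130 CPM. Fbn1, Fbln5 and Eln were also the highest in the endothelial cells without Npr3 outside that gate. There they were at 62.6, 39.1 and 89.0 CPM in GFPhi and at 145, 177 and 364 CPM in GFPlo. Loxl2 was at 6.85 and 18.0 CPM in those cells. With thinning, 23.9% of the lymphatic cells of GFPhi and 30.3% of those of GFPlo had a Fbn1 UMI, against 0.372% and 4.05% of macrophages, and 11.4% in each had a Loxl2 UMI, against 0.231% and 0 of 74 macrophages. With all cells, 8 of the 10 genes were lower in GFPhi than in GFPlo, where 22.8% of all genes were past the line and 12.8% lower, and Fbln5, at a ratio of 0.747, and Loxl2, at 0.738, were short of it. Without the 30 cells, 6 were lower, and Fbn1, at 0.967, and Eln, at 0.781, were not. In the remaining 231 cells of GFPlo, Lox was at 10.7 CPM, Loxl1 at 24.7, Mfap4 at 36.8 and Mfap5 at 54.8 CPM. The 72 macrophages of GFPlo lowest in fibroblast markers were close to this, at 9.95, 34.8, 32.3 and 49.7 CPM. Loxl3, at 16.7 against 0 CPM, and Fbln1, at 24.1 against 9.95 CPM, were above those macrophages. The part of background in the 6 calls was not tested. With a looser gate 3 were lower, and Fbn1, at 1.11, and Mfap5, at 1.07, were above 1 and short of the line.

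Mural cells were numerous enough only in GFPlo, where 66 of 134 also passed the fibroblast gate. With all of them, Eln was at 1359 CPM, Mfap5 at 759 CPM, Fbn1 at 674 CPM, Loxl1 at 560.2 CPM and Loxl2 at 286 CPM. Fibroblasts were higher for 8 of the 10 genes, where 11.5% of all genes were higher, and Loxl2, at 0.902 (0.807–1.01), and Loxl3, at 1.36, were short of the line. Without the cells in both gates, Eln was at 169 CPM, Fbn1 at 301 CPM, Loxl2 at 177 CPM in the remaining 68 cells, Fbln1 had a single UMI, and the ratios of fibroblasts over mural cells were 18.7 for Eln, 4.16 for Fbn1, 2.66 for Loxl3 and 1.46 for Loxl2. Loxl2 was thus the gene nearest to the fibroblast level in mural cells under both choices. The 13 mural cells of GFPhi had 374 CPM of Loxl2, 909.6 CPM of Fbn1 and 1029 CPM of Eln, and the 10 of them outside the fibroblast gate had 232, 309 and 57.9 CPM.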

How the data were processed

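The data were raw UMI counts per gene and cell barcode, whole numbers deposited by the authors for 2 droplet libraries of the 3′ ends of transcripts. The genome build is mm10 per the submitters' processing notes. The labels' protocols name a SeekOne kit while another label names 10x Genomics. Nothing on the aligner, counter and cell calling is given in the sources used here. The members, gene lists and panels were chosen with earlier results of these data known, and the gate thresholds were set after the data were seen.

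A barcode was kept as a cell from 300 genes and 500 UMIs upwards if no more than 20% of its UMIs were mitochondrial. In GFPhi 305 barcodes (2.92%) and in GFPlo 385 (3.12%) did not meet this. Mesothelial, mural and endothelial cells needed 4 of 8 markers, lymphatic endothelial cells 3 of 5 markers, macrophages 4 of 8 markers and 20 panel UMIs per 10000, lymphocytes 3 of 7 markers, and fibroblasts 4 of 8 markers (Pdgfra, Col1a1, Col1a2, Col3a1, Dcn, Lum, Dpt, Tcf21) and 50 per 10000. Mesothelial and vascular gates came before the fibroblast gate, which 423 of 437 mesothelial cells of GFPhi and 1152 of 1174 of GFPlo also passed. Subsets needed 2 markers and 10 per 10000 for the Pi16 and Comp panels or 50 per 10000 for the Cthrc1 panel. No doublet caller was run. Cells that passed several of the other gates, or a leukocyte gate with the fibroblast gate, were set aside as mixed, 141 in GFPhi and 135 in GFPlo.

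UMIs were summed per class and scaled to CPM, with exact Poisson intervals for levels, exact conditional intervals for ratios and exact Clopper-Pearson intervals for shares. Classes were compared between libraries with at least 50 cells in each, and a count of 0 was taken to allow 3 counts. The text names all 10 members, members of the other lists past 1.5-fold and, for each member, the 3 genes with the most similar levels. Other names, such as Cytl1 and the fibroblast markers in endothelial cells, were chosen after their values were seen. GENCODE vM21 gave positions and matched 32158 of 32285 identifiers. Promoters came from RefSeq, with an entry for 3 of the 10 members, of which the Fbn1 window lies in annotated exons and is not shown. The scripts were tested on simulated data and used Python 3.11.15, numpy 2.4.6, scipy 1.17.1, pandas 2.3.3 and matplotlib 3.10.9. Alternatives were another scaling, looser and stricter gates, no minimum level, a higher minimum, thinning, leaving out the deepest cells, subtracting the macrophage level and weighting cells equally. Those on shared barcodes and on endothelial and mural cells in the fibroblast gate were added after the data were seen.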

Additional observations from a re-analysis of the deposited data

How the results depend on the processing

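Of 2068 recomputed ratios of a member, 1449 were of ratios past 1.5-fold, and of these 1403 stayed past it and 6 turned round. The 2068 include 208 ratios with no minimum level and 49 with a minimum of 50 CPM. Those settings leave a ratio unchanged, so these could not turn round. No paired analysis was possible because each fraction gave 1 library. Using every deposited barcode, a minimum of 1000 UMIs a cell or a minimum level of 50 CPM, or leaving out shared barcodes, moved no count of members by over 1.5 times. In GFPhi over GFPlo fibroblasts the number of lower members was 1 with median-of-ratios scaling, 1 with the looser gate and 0 with the mean over cells, and the genes of the other lists higher and lower were 2 and 0 with that scaling, 2 and 2 with the looser gate, 2 and 2 after subtracting the macrophage level, and 3 and 4 with no minimum level, while 2 were lower with the stricter gate and 0 with the mean over cells. With no minimum level 9 other genes were lower in Pi16 fibroblasts of GFPlo. With the looser gate, 3 members were lower in lymphatic cells of GFPhi than of GFPlo, where the log2 ratios turned to 0.15 for Fbn1 and 0.10 for Mfap5, fibroblasts of GFPlo were higher than mural cells in 5 members, and Npr3-high cells were lower than cells without Npr3 in 1 member in GFPhi (Mfap5, log2 ratio -2.35) and 5 in GFPlo. With the mean over cells that last number was 1 in GFPhi (Mfap5, -0.91) and 1 in GFPlo, 1 member was lower in Comp fibroblasts of GFPhi, and 1 was higher in Cthrc1 fibroblasts of GFPlo. The stricter gate left 0 members higher in Comp fibroblasts of GFPlo. Without the 5% deepest cells, 1 member was higher in Npr3-high cells of GFPhi than of GFPlo, and 1 in Cthrc1 fibroblasts of GFPlo. Without endothelial cells in the fibroblast gate, 4 members were lower in Npr3-high cells of GFPhi than of GFPlo, and Npr3-high cells against those without Npr3 had 1 lower in GFPhi (Mfap5, -2.53) and 5 higher and 0 lower in GFPlo (Loxl2, 0.28). The shares of fibroblasts and Npr3-high cells with an Eln UMI were 79.6% and 72.8% in GFPhi and 87.3% and 87.0% in GFPlo with no thinning, and 61.4% and 60.8%, and 71.5% and 74.8%, with thinning to 2000 UMIs. The cause of these changes was not tested. The intervals cover counting error in the UMIs and not the number of cells, which was 27 Pi16 fibroblasts, 33 Comp fibroblasts and 13 mural cells in GFPhi.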

Other observations

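Each gene was compared with 6324 others over 23 sums of cells (1 class of 1 library each, with at least 50 cells), by the Pearson correlation of log2(CPM + 1). These sums hold separate cells but share libraries and depth, so the values are descriptions. Nearest to Lox was Col5a1 (r = 0.98), followed by Tmem45a and Col3a1, and nearest to Loxl1 were Col5a1, Col3a1 and Col6a1. Loxl2 lay nearest to Serping1, Fxyd1 and Ptgfrn, and Loxl3 to Grb14, Mrc2 and Sod3. Eln lay nearest to Mir100hg, Bgn and Fstl1, Fbn1 to Mxra7, C1qtnf6 and Fstl1, Mfap4 to Dpt, Tcf21 and Ltbp2, and Mfap5 to Smoc2, Tcf21 and Medag. The fibulins had no neighbour in common among the nearest 3, Fbln1 lying nearest to Medag (r = 0.99), Gas1 and Col6a2, and Fbln5 to Ccn1, Sgcd and Zbtb38. Col3a1, Dpt and Tcf21 are markers of the fibroblast gate, which fixes part of their pattern.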
